A study of Mus musculus with 6 samples.

Results

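The genes described here encode the vacuolar proton pump (V-ATPase), the Ragulator and Rag GTPase platform that recruits mTORC1 to lysosomes, and the MiT/TFE transcription factors that this platform restrains. They were chosen by symbol: every row whose symbol begins with Atp6v0 or Atp6v1, plus 20 named genes. This gave 38 genes of the 15824 listed. Polyadenylated RNA was sequenced from cells labelled as alveolar macrophages, the phagocytes that reside in the airspaces of the lung, sorted by flow cytometry from mice aged 8 weeks. The wild-type group (WT) and the Men1 knockout group (KO) had 3 libraries each, and Men1 encodes menin, a scaffold of MLL histone methyltransferase complexes. The labels name no strain, sex, Cre driver, deletion strategy or number of mice per library, and no treatment beyond sorting. The p-values therefore measure only the spread between these libraries, which may be technical.

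As background, the V-ATPase pumps protons into endosomes, lysosomes and phagosomes. A cytosolic V1 sector hydrolyses ATP and turns a membrane-embedded V0 sector that carries the protons. When amino acids are plentiful, the pump and Ragulator activate Rag GTPase pairs (RagA or RagB with RagC or RagD), which bring mTORC1 to the lysosomal surface. The folliculin complex acts on RagC and RagD, and its activity keeps TFEB and TFE3 phosphorylated in the cytosol. When released, MiT/TFE factors bind E-box sequences in lysosomal gene promoters. Several pump subunits have a widely expressed form and a second form found mainly in certain tissues such as kidney, bone, testis or brain, and in macrophages the pump acidifies the compartments that digest ingested material.

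The knockout label was checked first. Men1 had 639, 594 and 603 counts in the WT libraries and 150, 149 and 165 in the KO libraries. Total counts per library lay between 19955242 and 20151990, and libraries of a group were close to each other (chi-square per gene of 1.37 to 1.59, against 59.2 to 62.0 between groups). General macrophage markers were abundant (median level 1309 against 2252 CPM for WT against KO, where CPM is the count scaled to library size). Of 19 alveolar macrophage markers, 15 were listed, 5 of these were below 1 CPM in both groups, and of the 10 tested 4 were higher and 5 lower in KO. The 5 lower markers include Atp6v0d2, which is also among the 38 genes described here. Siglecf, the usual surface marker, stood at 2.06 ± 0.381 CPM (SD, n = 3) for WT and at 1.34 ± 0.154 CPM for KO. The defining markers Fabp1, Ear1, Ear2 and Plet1 had at most 4 reads in any library. Other markers of this list were abundant. Fabp5 went from 1395 to 1473 CPM between WT and KO, Marco rose 6.60-fold from 172 to 1137, and Spp1 fell 2.46-fold from 3757 to 1527. Itgax, Fabp4 and Pparg had WT means of 53.0, 29.4 and 19.0 CPM, against KO means of 43.8, 31.5 and 13.1. In WT the median alveolar marker was at 6.94 CPM and the median interstitial macrophage marker at 94.9 CPM, so the markers only partly bear out the labelled cell type. Of 10 interstitial macrophage markers tested, 8 were higher and 1 lower. Fibroblast and smooth muscle markers were lower in KO (10 of 10, summed level 87.0 to 89.1 CPM in WT and 16.1 to 18.4 CPM in KO). Neutrophil markers were higher for 3 of 4 tested and lower for 1 (summed level 58.1 to 61.3 CPM in WT and 138 to 138.5 CPM in KO). Most of this sum was S100a8 (37.9 CPM in WT, 71.0 in KO) and Csf3r (19.7 and 63.3 CPM). Of the 6 neutrophil markers listed, 3 were below 1 CPM in both groups. Monocyte markers were higher for 4 of 7 and lower for 1, and both lymphocyte markers tested were higher (summed level of the list 2.34 to 2.80 CPM in WT and 10.4 to 10.9 CPM in KO). The 4 Y-linked genes examined had 283 to 1530 counts in each WT library and 0 to 2 in each KO library. A difference of sex therefore cannot be told apart from one of genotype in any comparison below. The part of the marker differences in the results below was not tested, and in bulk samples fewer cells of a type cannot be told apart from less RNA per cell.

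In KO libraries the largest decreases were in the paralog genes Rragd and Rragb, the pump isoform gene Atp6v0d2 and the folliculin partner gene Fnip2, while Ragulator genes Lamtor1 and Lamtor2 rose. Of the 38 genes, 36 had enough counts to be tested, and 28 passed an adjusted p of 0.05 (quasi-likelihood F test of edgeR), with 11 above and 17 below the WT level. This is 77.8% of the members tested, read against 69.2% of all 11817 genes tested, with 34.4% higher and 34.9% lower. The median log2 fold change was -0.036 over the members and 0.0014 over all genes. Called members with a 1.5-fold or larger change numbered 7 (19.4% of the members tested, 1 higher and 6 lower), against 17.8% of all genes (8.4% higher and 9.39% lower). The WT and KO libraries did not overlap for 30 of the 36 members (13 higher and 17 lower), against 71.2% of all genes (35.4% higher and 35.8% lower). The share of members that differed was thus near that of the transcriptome, and what follows describes which members moved and how far.

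**Figure D1:**
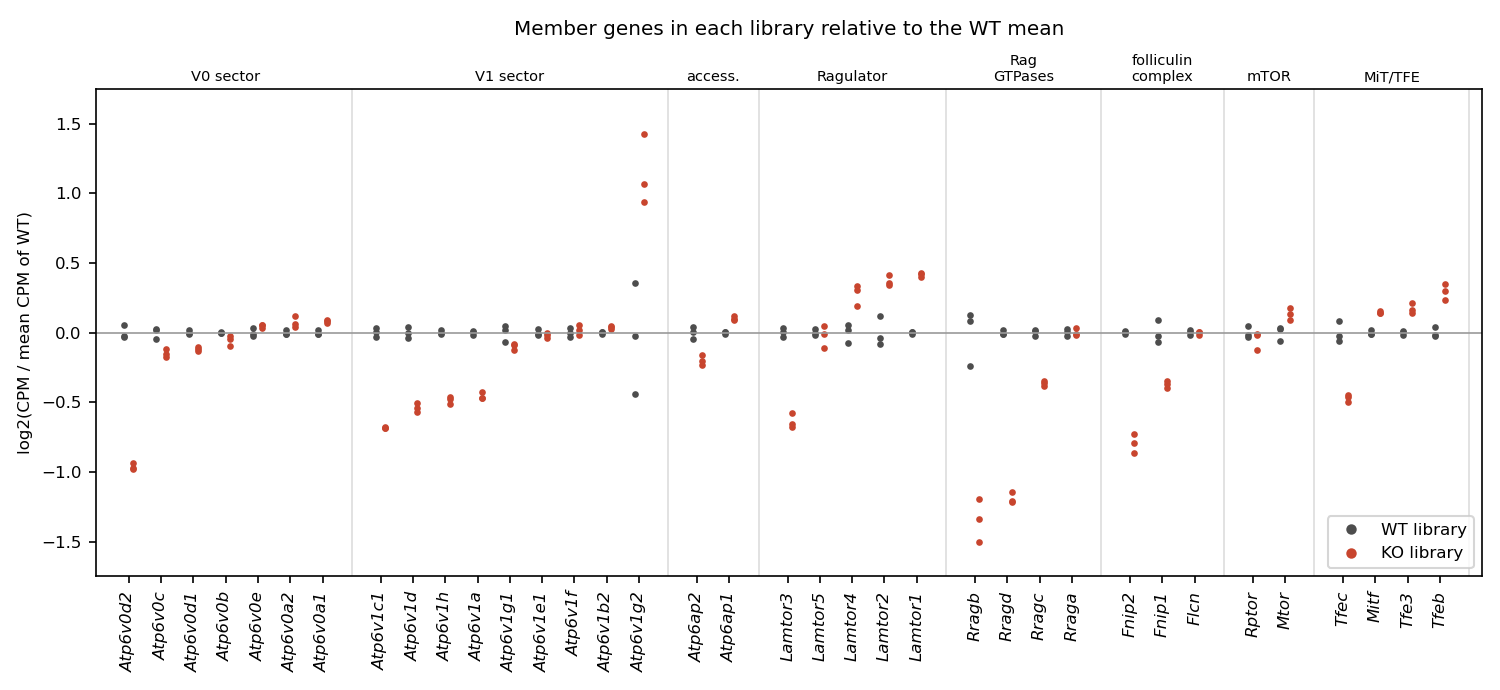
Level of each tested member in each library as log2 of CPM over the mean CPM of WT (vertical axis), by role along the horizontal axis, with WT libraries in grey and KO libraries in red. KO libraries of Rragd, Rragb, Atp6v0d2, Fnip2, Atp6v1c1 and Lamtor3 lie below the WT libraries by at least 1.5-fold in the fit, and Atp6v1g2 lies above.

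Promoter sequences are shown for members that moved in different directions, because MiT/TFE factors bind the E-box CACGTG. RefSeq promoter windows of build GRCm38.p6 (300 bases, from 250 before to 50 after a gene's start) matched 31 of the 38 members, in 39 windows. The 7 without a window were Atp6v0a2, Atp6v0d2, Atp6v1b2, Atp6v1c1, Atp6v1g1, Atp6v1h and Lamtor3. Of these, Atp6v0d2, Atp6v1c1 and Lamtor3 fell by at least 1.5-fold, so the shares below leave them out. The letters CACGTG, which read the same on both strands, occurred in 9 of these windows (23.1%), against 10.01% of 12064 windows of tested genes and 7.15% of all 32851 windows. The longer form TCACGTGA, which contains CACGTG and also reads the same on both strands, occurred in 3 member windows (7.69%, against 1.84% of tested genes' windows). GTCACGTG, searched on both strands and also containing CACGTG, occurred in 3 windows (7.69%, against 4.18%). TCATGTGA, the M-box searched on both strands, occurred in 3 windows (7.69%, against 0.804%). The 150 bases before the start site that the promoter table uses are printed below, 5′ to 3′ on the gene's strand, with matches in capitals. A gene can have several annotated starts: the printed stretch of Atp6v1a lies wholly, and those of Fnip1 and Atp6v0b partly, inside the gene's full annotated span.
Atp6v1a (chr16:44139260-44139409, minus strand): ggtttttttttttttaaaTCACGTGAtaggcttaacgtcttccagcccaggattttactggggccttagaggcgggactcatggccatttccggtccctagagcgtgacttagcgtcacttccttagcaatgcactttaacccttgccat
Rragc (chr4:123917283-123917432, plus strand): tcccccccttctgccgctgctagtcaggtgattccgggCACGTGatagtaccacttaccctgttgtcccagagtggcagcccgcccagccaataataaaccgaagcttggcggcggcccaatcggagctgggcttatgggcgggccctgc
Fnip1 (chr11:54438029-54438178, plus strand): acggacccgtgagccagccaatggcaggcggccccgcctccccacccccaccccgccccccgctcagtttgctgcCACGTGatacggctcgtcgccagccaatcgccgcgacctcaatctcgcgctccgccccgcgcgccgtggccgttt
Atp6v0b (chr4:117887330-117887479, minus strand): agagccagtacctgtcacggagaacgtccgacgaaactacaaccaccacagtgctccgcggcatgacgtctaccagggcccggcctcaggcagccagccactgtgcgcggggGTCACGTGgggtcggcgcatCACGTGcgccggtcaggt
Lamtor1 (chr7:101905687-101905836, plus strand): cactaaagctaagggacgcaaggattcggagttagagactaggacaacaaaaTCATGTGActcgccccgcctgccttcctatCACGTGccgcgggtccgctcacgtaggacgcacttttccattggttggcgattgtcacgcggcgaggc
Lamtor4 (chr5:138255332-138255481, plus strand): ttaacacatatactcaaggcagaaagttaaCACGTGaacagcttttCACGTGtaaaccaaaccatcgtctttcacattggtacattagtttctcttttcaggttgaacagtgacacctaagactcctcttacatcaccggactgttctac
Atp6v1a, Rragc and Fnip1 fell in KO, Lamtor1 and Lamtor4 rose, and Atp6v0b was 1.04-fold lower. Matches therefore stood before genes that moved either way. Of the 9 members with CACGTG, the printed genes aside, Atp6v0d1 and Rragb were lower and Atp6v0e did not pass. More of the 9 were thus lower than higher. Among all genes tested, 34.9% were lower and 34.4% higher, and the split was not tested. A match describes letters in the window and shows no binding.

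Among the 6 common V0 subunit genes, changes were small. Atp6v0c encodes the subunit that forms most of the proton-carrying ring and had the highest level per length of any member, with a mean FPKM (fragments per kilobase of transcript, scaled to library size) of 1828 in WT. Its levels were 1456, 1518 and 1524 CPM in WT libraries 1 to 3 and 1326, 1380.5 and 1350.5 CPM in KO libraries, so every KO library was below every WT library. The decrease was 1.11-fold (log2 -0.15, SE 0.0186, adjusted p = 8.52e-09, from edgeR's quasi-likelihood fit and adjusted by Benjamini-Hochberg, as for all adjusted p-values below unless another tool is named). Processed copies of Atp6v0c exist in the genome, so reads may be shared, and its value is uncertain to that extent. Atp6v0d1, the common form of the stalk-coupling d subunit, was 1.09-fold lower (adjusted p = 6.16e-06), and the ring gene Atp6v0b was 1.04-fold lower (adjusted p = 0.0223, and 0.193 without KO replicate 1 or 0.0730 without WT replicate 3). Atp6v0e, a small membrane subunit, went from 228 ± 4.98 to 236 ± 1.96 CPM and did not pass (adjusted p = 0.0606), and neither did Atp6v0a2 (70.3 and 73.9 CPM, adjusted p = 0.0600). Atp6v0a1, a form of the large a subunit, was 1.06-fold higher on the count scale (adjusted p = 0.000987), but its log2 change was -0.075 on the TPM scale (a length-corrected share of all transcripts).

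Of the 8 common V1 subunit genes, 4 fell by 1.37-fold to 1.61-fold and the other 4 differed by 1.07-fold or less. Atp6v1c1 encodes the C subunit, which holds V1 onto V0 and is released when the pump disassembles. It fell from 375, 384 and 393 CPM in WT to 239, 239.6 and 239 CPM in KO, a 1.61-fold decrease (log2 -0.68, SE 0.0225, adjusted p = 6.86e-25). Atp6v1d, the rotor shaft gene, fell from 160.1, 164 and 156 CPM to 113, 108 and 110.3 CPM (1.45-fold, SE 0.0285 on the log2 scale, adjusted p = 1.36e-18). Atp6v1h, the regulatory H subunit gene, fell from 238, 234 and 233 CPM to 171, 165 and 169 CPM (1.40-fold, SE 0.0244, adjusted p = 3.6e-19). Atp6v1a, the catalytic A subunit gene whose promoter is printed above, fell from 879, 895 and 891 CPM to 642, 662 and 642 CPM (1.37-fold, SE 0.0186, adjusted p = 6.38e-22). In these 4 genes the groups lay far apart relative to the spread within them.

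Atp6v1b2, which encodes the B subunit that alternates with A in the same catalytic ring, behaved differently. Its levels were 1069, 1080.3 and 1076.5 CPM for WT against 1111, 1096.5 and 1103 CPM for KO, a 1.03-fold difference with an adjusted p of 0.0475 that was lost in 10 of 20 alternative settings. Its sign turned in 6 others, all without TMM scaling (log2 -0.10 on the TPM scale, limma adjusted p = 0.000455). Atp6v1e1 and Atp6v1f, genes of the peripheral stalk and the central rotor, did not pass (log2 -0.021, adjusted p = 0.417, and 0.019, adjusted p = 0.565), with WT and KO libraries overlapping. Atp6v1g1, a peripheral stalk gene, was 1.07-fold lower (adjusted p = 0.000729). Over the 8 genes, 5 fell, 1 was higher and 2 did not pass, with a median log2 fold change of -0.28. Over the 6 common V0 genes, 3 fell, 1 was higher and 2 did not pass, with a median of -0.0029. With the sectors together, 8 of 14 common subunit genes fell and 2 were higher, against 34.9% lower and 34.4% higher among all genes. The share called in either direction was near the 69.2% of all genes, with more of the calls lower. When a biological coefficient of variation of 0.1 was assumed, the 4 genes Atp6v1a, Atp6v1c1, Atp6v1d and Atp6v1h passed, a smaller share than the 37.3% of all genes.

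**Figure D2:**
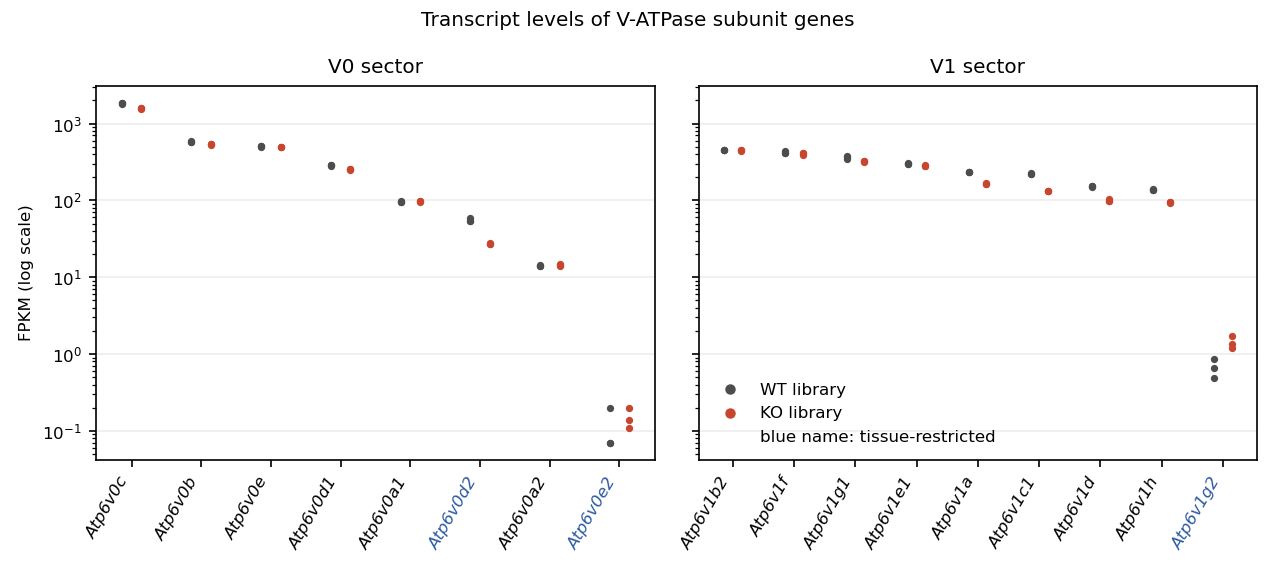
FPKM of V-ATPase subunit genes in each library on a log axis, ordered by WT level within each sector, with WT in grey, KO in red and tissue-restricted forms named in blue. Atp6v0c is the highest, at a mean of 1828 FPKM in WT, Atp6v0d2 lies between Atp6v0a1 and Atp6v0a2, and Atp6v0e2 and Atp6v1g2 lie below 2 FPKM in every library. Atp6v0a4, at 0 in 5 of 6 libraries, is not drawn.

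Per length, the subunit genes of the pump formed an ordered series in WT. Atp6v0c was followed by Atp6v0b (584 FPKM), Atp6v0e (503), Atp6v1b2 (455), Atp6v1f (419.5), Atp6v1g1 (363) and Atp6v1e1 (299), and no 2 neighbours in this run overlapped between libraries. Atp6v0d1 had 286 FPKM, Atp6v1a 235, Atp6v1c1 222, Atp6v1d 152, Atp6v1h 137 and Atp6v0a1 96.7. The 4 V1 genes that fell most were thus the 4 with the lowest FPKM among common V1 genes in WT. In KO their means were 165 FPKM for Atp6v1a, 133 for Atp6v1c1, 100.1 for Atp6v1d and 94.3 for Atp6v1h.

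Of the 8 subunit genes classed here as tissue-restricted, 4 had a row in the table, and Atp6v0d2 was the only gene of these above 3 CPM. Atp6v0d2 is the form of the d subunit known from osteoclasts, kidney and lung macrophages, and it is also used as an alveolar macrophage marker. The gene lies at chr4:19876838-19922566 (RefSeq, GRCm38.p6). Its levels were 123, 116 and 117 CPM for WT against 60.5, 61.9 and 60.1 CPM for KO. The KO libraries were close to each other and far below the WT libraries (1.95-fold lower, log2 -0.96, SE 0.0333, adjusted p = 3.21e-24). Of the other 3, Atp6v0a4 and Atp6v0e2 were at or near the limit of detection. Atp6v0a4, a kidney form, had 1 read in WT library 3 and none elsewhere, under the floor of 3 counts (0.146 to 0.153 CPM per library). Atp6v0e2, a form known from brain, had 6, 2 and 2 reads in WT and 3, 6 and 4 in KO.

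Atp6v1g2, a neuronal form of the G subunit, was the member with the highest positive fold change, at a very low level. It had 12, 16 and 21 reads in WT and 33, 42 and 30 in KO, or 0.589, 0.786 and 1.02 CPM against 1.67, 2.15 and 1.53 CPM. The groups did not overlap, and the increase was 2.22-fold (log2 1.15, SE 0.243, adjusted p = 8.59e-05). The gene overlaps Nfkbil1 in RefSeq, and some of its estimated counts are not whole, so reads may be shared between these genes. Nfkbil1 itself was higher in KO (204, 220 and 214 reads in WT, 246, 267 and 262 in KO, adjusted p = 0.000226). The neuronal markers that were listed (2 of 5) stayed below 1 CPM in both groups, with Tubb3 at 0.457 CPM in WT and 0.713 in KO. Their part in the result was not tested.

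Because d subunit genes encode alternative forms of 1 position in the pump, their shares of the summed FPKM were compared. Atp6v0d2 made up 16.3% ± 0.300 (SD, n = 3) of the d subunit transcripts in WT and 9.73% ± 0.0654 in KO, while the sum over both forms went from 342 ± 6.63 to 280.4 ± 2.95 FPKM. The log2 ratio of Atp6v0d2 to Atp6v0d1 was 0.85 lower in KO, with no overlap between libraries. An exact two-sided permutation test gave p = 0.1, the smallest that 3 against 3 libraries allow (0.143 after Benjamini-Hochberg adjustment over 10 paralog pairs), so no ratio could pass a threshold of 0.05. For comparison, the log2 changes of the 14 common genes ran from -0.68 (Atp6v1c1) to 0.081 (Atp6v0a1), and Atp6v0d1 in the same position changed by -0.12. With 2 restricted genes tested, 1 lower and 1 higher, the classes themselves were not tested against each other.

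Osteoclast genes were examined beside Atp6v0d2, since osteoclasts are the cells best known for it. Of 10 osteoclast markers, 9 were tested, 7 fell and 2 rose, with a median log2 fold change of -0.44 against 0.0014 for all genes. The summed level of the 10 was 872 to 886 CPM in WT and 634 to 650.3 CPM in KO. Ctsk was the largest part of this sum in both groups, and the fall of the sum follows that gene. The median level of the 10 went from 42.7 CPM in WT to 55.8 CPM in KO. Ctsk, the collagen-degrading cathepsin gene, fell 1.90-fold from 519 ± 9.37 to 273 ± 3.66 CPM, and the fusion gene Dcstamp fell 2.17-fold from 10.7 ± 0.909 to 4.92 ± 0.195 CPM. The integrin gene Itgb3 fell 1.36-fold. The 2 that rose were Mmp9, a matrix metalloproteinase gene (2.68-fold, from 19.9 ± 0.503 to 53.2 ± 1.73 CPM), and Acp5, the gene of tartrate-resistant acid phosphatase (1.26-fold, from 80.3 ± 0.750 to 101 ± 3.53 CPM). The calcitonin receptor gene Calcr had 0.262 and 0.0509 CPM (WT and KO), near the floor. Other markers of proton-secreting epithelium, whose cells also use this form, had at most 2 reads in any library (Foxi1, Slc26a4, Cftr and Ascl3).

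The a subunit, which anchors the pump and directs it to a membrane, is encoded by a further gene, Tcirg1 (the a3 form of osteoclasts and macrophage lysosomes). Tcirg1 is not among the 38 members, but its share bears on the a subunit. It fell 1.24-fold, from 408 ± 9.78 to 329 ± 9.36 CPM (adjusted p = 1.87e-14). Its share of a subunit FPKM was 61.1%, 61.3% and 61.4% in WT and 54.7%, 55.6% and 54.6% in KO. Atp6v0a1 made up 33.7% ± 0.045 in WT and 39.2% ± 0.486 in KO, and Atp6v0a2, a form of the Golgi and endosomes, 4.99% ± 0.154 and 5.84% ± 0.184. Tcirg1 remained the most abundant a subunit transcript per length in all 6 libraries.

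**Figure D3:**
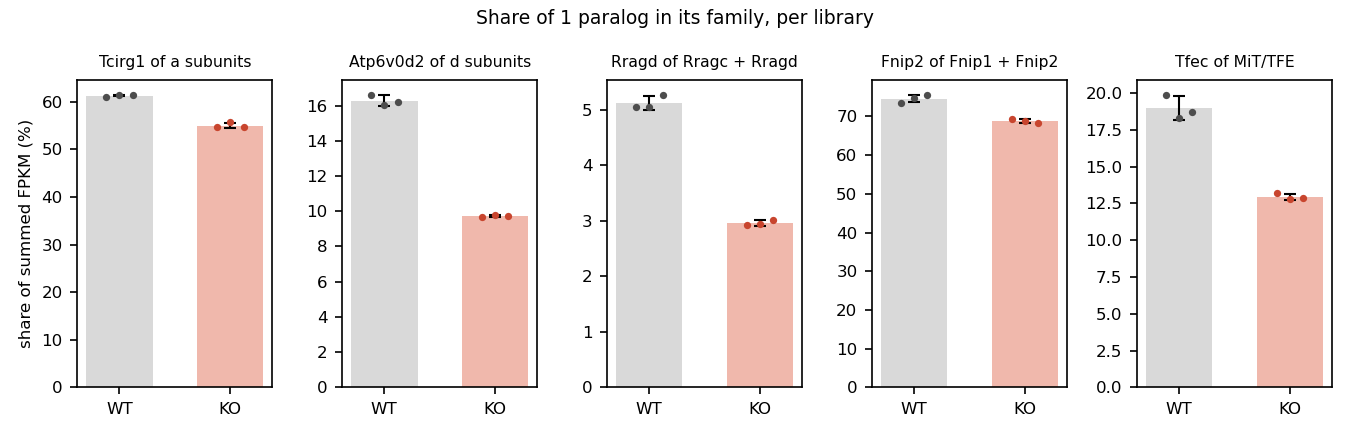
Share of 1 paralog in the summed FPKM of its family (percent, vertical axes starting at 0 with different ranges) in WT and KO. Bars are means, error bars SD and points the 3 libraries of each group, and the KO points lie below the WT points in all 5 families, for example 9.73% against 16.3% for Atp6v0d2.

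The accessory subunit genes moved in opposite directions, and by little. Atp6ap2, the prorenin receptor that also helps assemble the pump, fell 1.15-fold, from 380.2 ± 11.7 to 331 ± 8.10 CPM (adjusted p = 2.24e-09). Atp6ap1, an assembly factor that stays in the V0 sector, was 1.07-fold higher on the count scale (529 ± 2.56 and 568 ± 6.60 CPM, adjusted p = 1.28e-05), and its log2 change was -0.038 on the TPM scale. Both genes are X-linked.

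The Ragulator is a pentamer in which Lamtor1 anchors Lamtor2 to Lamtor5 to the lysosomal membrane, and its genes did not move together. Lamtor1 rose from 126, 127 and 128 CPM to 167, 171 and 169.7 CPM (1.33-fold, log2 0.41, SE 0.0261, adjusted p = 2.38e-16). Lamtor2 rose from 44.3, 45.6 and 50.9 CPM to 59.4, 62.6 and 60.2 CPM (1.29-fold, SE 0.0432, adjusted p = 1.76e-09). Lamtor3, whose product forms a heterodimer with that of Lamtor2, fell from 125, 128 and 122 CPM to 79.1, 78.3 and 83.7 CPM (1.55-fold, SE 0.0316, adjusted p = 1.91e-19). All 3 genes had groups that did not overlap.

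Lamtor4 and Lamtor5 encode the other heterodimer of the complex. Lamtor4 rose 1.21-fold, from 44.3 ± 2.02 to 53.7 ± 2.85 CPM (adjusted p = 8.13e-07, and 0.063 with the assumed coefficient of variation of 0.1). Lamtor5 was at 72.6 ± 1.11 and 71.5 ± 3.89 CPM and did not pass (adjusted p = 0.61). In WT, FPKM decreased from Lamtor2 (187) over Lamtor1 (152), Lamtor3 (137) and Lamtor5 (135) to Lamtor4 (83.1), with Lamtor3 and Lamtor5 overlapping between libraries. In KO, Lamtor3 had 84.6 FPKM and was the lowest of the 5. Over the complex, 3 genes rose, 1 fell and 1 did not pass, with a median log2 fold change of 0.28.

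Among the Rag GTPase genes, 3 of 4 fell and none rose. Rragd encodes RagD, which is itself known as a MiT/TFE target and regulates TFEB and TFE3 more than other mTORC1 substrates. The gene lies at chr4:32982998-33022180 (RefSeq, GRCm38.p6). It fell from 37.5, 37.6 and 38.3 CPM in WT to 16.3, 16.3 and 17.1 CPM in KO, a 2.28-fold decrease (log2 -1.19, SE 0.0523, adjusted p = 5.17e-21). Rragc, the gene of its close relative RagC, fell from 339, 341 and 332 CPM to 262, 259 and 265 CPM (1.29-fold, SE 0.0221, adjusted p = 7.09e-17). Both genes had separate groups, and the log2 ratio of Rragd to Rragc was 0.82 lower in KO (exact permutation p = 0.1). Rragd was 5.12% ± 0.126 of their summed FPKM in WT and 2.96% ± 0.0497 in KO.

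RagA and RagB are nearly identical partners of RagC and RagD. Rraga had levels of 56.4, 54.5 and 55.7 CPM in the WT libraries against 54.8, 55.3 and 56.8 CPM in the KO libraries, and did not pass (log2 0.0017, SE 0.0376, adjusted p = 0.971). Rragb, which is known mainly from neurons, was at the edge of detection with 20, 25 and 26 reads in WT and 10, 8 and 9 in KO. The groups did not overlap, and the fitted decrease was 2.51-fold (log2 -1.33, SE 0.293, adjusted p = 0.00015). On log2(TPM + 1) the change was -0.45, on a scale that understates changes of genes with low values. Rragb is X-linked, and reads shared between such similar genes cannot be assigned with certainty.

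In the folliculin complex, a GTPase-activating complex for RagC and RagD, the partner genes fell and Flcn itself did not pass. Fnip2 fell from 323, 318 and 322 CPM to 194, 186 and 176 CPM (1.73-fold, log2 -0.79, SE 0.0259, adjusted p = 5.39e-25). Fnip1 fell from 100.3, 92.5 and 89.9 CPM to 74.0, 73.0 and 71.4 CPM (1.29-fold, SE 0.0362, adjusted p = 2.52e-11). Flcn had levels of 66.5, 67.3 and 65.5 CPM in the WT libraries against 66.5, 66.8 and 65.7 CPM in the KO libraries, with overlapping groups (adjusted p = 0.954). The summed FPKM of Fnip1 and Fnip2 went from 63.8 ± 1.35 to 38.6 ± 1.55, and the share of Fnip2 from 74.6% ± 0.999 to 68.8% ± 0.635. Of mTORC1 itself, the kinase gene Mtor was 1.10-fold higher (44.8, 42.3 and 45.2 against 48.3, 49.7 and 46.8 CPM, adjusted p = 0.00593, with a log2 change of -0.0072 on the TPM scale), and it did not pass without WT replicate 2 (adjusted p = 0.0527) or in DESeq2 (adjusted p = 0.0545). The scaffold gene Rptor did not pass (60.2 ± 1.76 and 58.1 ± 2.56 CPM, adjusted p = 0.256).

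Of the 4 MiT/TFE genes, 3 were slightly higher in KO and 1 was lower. Tfe3 was the most abundant, at 53.1 ± 0.714 FPKM in WT, followed by Tfec at 18.8 ± 1.06, Tfeb at 14.6 ± 0.393 and Mitf at 12.5 ± 0.108. Tfeb, the best known regulator of lysosomal genes, rose from 27.0, 28.2 and 27.2 CPM to 34.9, 33.7 and 32.2 CPM (1.23-fold, log2 0.29, SE 0.0490, adjusted p = 2.47e-06). Tfe3 went from 144, 142 and 145 CPM to 158, 160.4 and 166 CPM (1.13-fold, SE 0.0267, adjusted p = 6.77e-07), and Mitf from 52.9, 52.9 and 54.0 CPM to 58.6, 59.4 and 58.6 CPM (1.10-fold, SE 0.0370, adjusted p = 0.000836). The groups of each of these genes were separate, but on log2(TPM + 1) limma gave log2 changes of 0.029 for Tfe3 (adjusted p = 0.352) and 0.010 for Mitf (adjusted p = 0.797). All 3 increases also missed the threshold with the assumed coefficient of variation of 0.1, with adjusted p-values of 0.0555 for Tfeb, 0.264 for Tfe3 and 0.375 for Mitf. Tfe3 is X-linked.

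Tfec, the family member expressed mainly in macrophages and lacking an activation domain present in the others, fell from 29.9, 27.1 and 27.8 CPM to 20.7, 20.02 and 20.5 CPM (1.38-fold, log2 -0.47, SE 0.0553, adjusted p = 2.38e-09). Every KO library was below every WT library. Its share of the family's FPKM went from 19.0% ± 0.819 to 13.0% ± 0.215, while the summed FPKM of the 4 genes was 99.03 ± 1.37 in WT and 101.1 ± 1.11 in KO. The order of Tfeb and Tfec therefore turned, with 17.3 FPKM for Tfeb and 13.1 for Tfec in KO. Mast cells and melanocytes also use Mitf, and all 5 listed mast cell and basophil markers and both listed melanocyte markers were below 1 CPM in both groups.

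Other genes of the pathway were taken from lists and read against the 34.4% of all genes that were higher and the 34.9% that were lower. For assembly and regulation of the pump, 17 genes were tested, 2 were higher and 7 lower. Besides Tcirg1, these included Wdr7, a component of the assembly complex that reunites V1 with V0 (1.46-fold lower, at 105 CPM in WT and 71.9 in KO), and the assembly factor genes Tmem199 (1.34-fold lower) and Ccdc115 (1.32-fold lower). For nutrient sensing upstream of the Rag GTPases, 22 genes were tested, 7 were higher and 2 lower. Sesn1, encoding a leucine-sensor family protein, rose 2.86-fold from 63.8 ± 0.286 to 183 ± 2.08 CPM, and Castor2, an arginine-sensor family gene, rose 1.55-fold. The GATOR2 genes Mios and Seh1l fell (log2 -0.51 and -0.37), and Kptn, of the KICSTOR complex, rose 1.56-fold.

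Partners of mTORC1 and mTORC2 and the TSC genes were divided, with 9 higher and 9 lower of 22 tested. Ulk1, the autophagy-initiating kinase gene, rose 1.57-fold, while the S6 kinase gene Rps6kb1 and Rictor, the mTORC2 scaffold gene, fell (log2 -0.47 and -0.38). Of 20 genes that act on MiT/TFE proteins, 5 were higher and 12 lower. Among them the 14-3-3 genes Ywhaz and Ywhah fell 1.27-fold and 1.14-fold, the calcineurin subunit gene Ppp3r1 fell 1.18-fold, the kinase gene Map4k3 fell 1.29-fold and Prkcd rose 1.20-fold.

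Genes known as TFEB targets through E-boxes of the lysosomal type numbered 47 tested, of which 23 were higher, 15 lower and 9 did not pass, with a median log2 fold change of 0.034. They were split by member: Glb1, Hgsnat and Hexa, which encode lysosomal enzymes, rose 2.33-fold, 1.63-fold and 1.41-fold, while Gpnmb and the galactosidase gene Gla fell 1.58-fold and 1.43-fold. Of 14 tested MITF target genes known from melanocytes, osteoclasts and mast cells, 3 rose and 10 fell (median log2 fold change -0.32). Besides Ctsk and Dcstamp, the receptor gene Met fell 3.19-fold from 86.8 ± 3.39 to 27.2 ± 0.999 CPM, Itgb3 fell 1.36-fold and Mmp9 rose 2.68-fold. Of these 14 genes, 8 are also among the osteoclast markers above. All genes named in these paragraphs as having risen or fallen passed the adjusted p threshold.

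The scale mattered for small changes. On log2(TPM + 1) the median over all genes shifted to -0.12, and limma called 5 members higher and 26 lower, against 21.1% and 49.3% of all genes (70.4% in either direction). On log2(FPKM + 1) it called 7 higher and 17 lower, against 28.1% and 40.0% of all genes (68.1% in either direction). Of all called genes, 49.6% were higher on the count scale, 41.3% on the FPKM scale and 30.0% on the TPM scale. After subtraction of the shift of -0.12 from the TPM values, all 28 members called on the count scale had the same direction, and 34 of all 36 did. Both scales describe the same libraries, so this agreement is not separate support. Of the 28 called members, 15 kept their direction and their call at an adjusted p of 0.05 in each of 20 alternative fits (17 for Rragb, which the others did not test). These were Atp6v0d2, Atp6v1a, Atp6v1c1, Atp6v1d, Atp6v1h, Lamtor3, Rragb, Rragc, Rragd, Fnip1, Fnip2 and Tfec, which were lower in KO, and Atp6v1g2, Lamtor1 and Lamtor2, which were higher. With a 1.5-fold minimum as well, 7 of them remain: Atp6v0d2, Atp6v1c1, Lamtor3, Rragb, Rragd, Fnip2 and Atp6v1g2. The fit with an assumed coefficient of variation of 0.1, a value often assumed for animals of 1 inbred strain, is 1 of the 20 fits. The members it called were these same 15. Their passing it is part of how they were selected and gives no separate support. Under this fit 37.3% of all genes passed (18.4% higher and 18.8% lower).

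**Figure D4:**
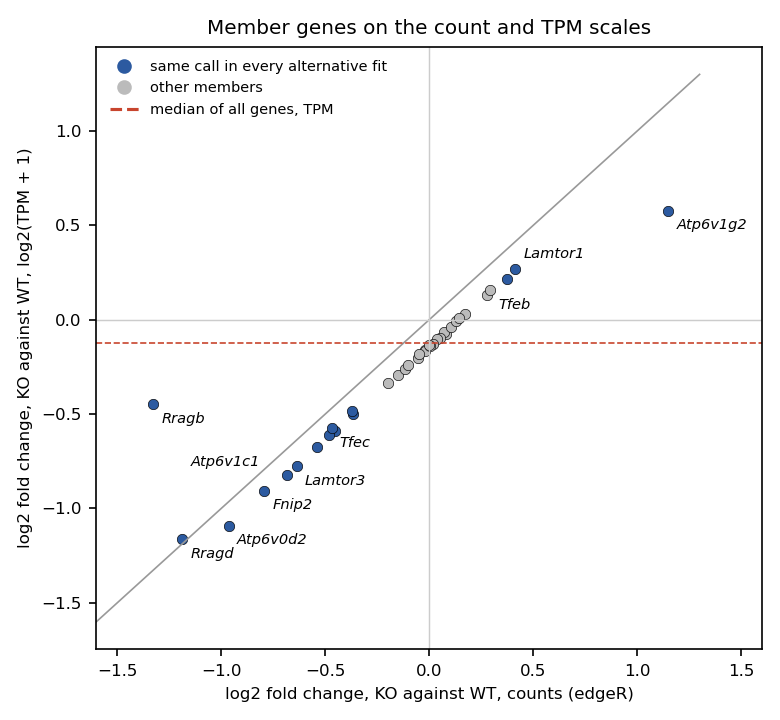
Log2 fold change of each tested member on the count scale (horizontal axis) against the TPM scale (vertical axis), with the line of equality in grey and the median of all genes on the TPM scale dashed. Blue points are the 15 members with the same call in every alternative fit that tested them (a 1.5-fold minimum not applied), among them Rragd, Atp6v0d2 and Lamtor1, and the other members lie between them near 0 and below the line.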

How the data were processed

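RNA of sorted mouse alveolar macrophages was measured in 3 WT and 3 KO libraries, grouped by the genotype in the labels. The deposited table holds estimated counts per gene (8.66% to 9.19% of the values in a library are not whole), FPKM and TPM, all made by the authors and named as such per the file headers. The submitters' processing notes name HISAT, Bowtie2 and GRCm38.p6, and the counting program and strand setting are not known from the labels. Reads of antisense partners or near-identical copies (Rraga and Rragb, Atp6v0c and its processed copies) may therefore be shared.

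Estimated counts were rounded, filtered with filterByExpr (11817 genes kept, 4007 left out), scaled by TMM and tested with edgeR 4.0.16 (quasi-likelihood, KO against WT), with Benjamini-Hochberg adjustment over all genes tested and a threshold of 0.05. FPKM and TPM of the authors were tested on log2(value + 1) with limma 3.58.1, and DESeq2 1.42.0 was an alternative. Shares and ratios of paralogs had exact permutation tests over libraries. The scripts were tested on simulated data. A count of 3 (0.146 to 0.153 CPM) was taken as the floor, and it covers counting error only. The fitted coefficient of variation between libraries was 1.66%, so a value of 0.1 was also assumed. Full values are given for members that changed at least 1.5-fold, for isoform pairs and for MiT/TFE genes, and genes named from a further pathway list are among the 5 with the smallest p. Osteoclast marker genes were picked for naming after their values were seen. The members and lists were chosen with earlier results of these data known. Atp6v1b1, Atp6v1c2, Atp6v1e2 and Atp6v1g3 are not analysed here. Promoter sequences are from RefSeq (GRCm38.p6).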

Additional observations from a re-analysis of the deposited data

How the results depend on the processing

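Of the 28 members called, 15 kept direction and call in 20 alternative fits (17 for Rragb), and 7 of these also with a 1.5-fold minimum. The rest depended mainly on the scale and the spread assumed. Over all genes (4060 higher, 4119 lower), TPM gave 2396 or 2389 higher (pseudocount 1 or 0.1), the assumed coefficient of variation of 0.1 gave 2180 higher and 2226 lower, and a 1.5-fold minimum gave 993 and 1110. Members higher (11) numbered 7 on FPKM at either pseudocount or unfiltered, 5 on TPM, 3 with the assumed variation and 1 with the fold minimum. Members lower (17) numbered 26 on TPM and 6 with the fold minimum. Common subunits higher (2) numbered 1 with RLE or upper-quartile scaling, a stricter filter, no X- and Y-linked genes, an adjusted p of 0.01, or Atp6v0a1 counted as restricted. They numbered 4 without a filter, 3 with the replicate block, 1 to 2 with 1 library left out, and 0 unscaled, on FPKM, on TPM, with the assumed variation or with the fold minimum. Common subunits lower (8) numbered 13 on TPM, 4 with the assumed variation and 1 with the fold minimum, and their median log2 change went from -0.077 on CPM to -0.22 on TPM. From counts, the share of Atp6v0d2 changed by -9.15 points (-6.56 from FPKM) and that of Atp6v1g2 by 0.406 (0.253 from FPKM). Small changes turned sign. On TPM (pseudocount 1, then 0.1), the log2 changes were -0.075 and -0.076 for Atp6v0a1, -0.064 and -0.067 for Atp6v0a2, -0.096 and -0.096 for Atp6v0e, -0.10 and -0.10 for Atp6v1b2, -0.13 and -0.13 for Atp6v1f, -0.038 and -0.038 for Atp6ap1, -0.14 and -0.14 for Rraga, and -0.0072 and -0.0080 for Mtor. Unscaled, they were -0.0072 for Atp6v0e, -0.019 for Atp6v1b2, -0.038 for Atp6v1f and -0.055 for Rraga. On FPKM, they were -0.015 for Atp6v0e, -0.021 for Atp6v1b2, -0.050 for Atp6v1f, and -0.057 or -0.058 for Rraga. Rraga was at -0.0062 with upper-quartile scaling, -0.00082 with the stricter filter, and between -0.012 (without KO replicate 3) and 0.014 with 1 library left out. Flcn was at 0.0071 without a filter and between -0.010 and 0.0073 (without WT replicate 2) with 1 library left out, and Lamtor5 between -0.056 and 0.022 (without KO replicate 2). The cause of these turns was not tested. Equal replicate numbers did not pair the libraries (correlations of -0.018, 0.028 and 0.019). With the replicate block, 4121 genes were higher and 4200 lower, and 12 members were higher and 17 lower, the added one being Atp6v0e (adjusted p = 0.0376, edgeR).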
